A study of Mus musculus with 4 samples.

Results

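The 10 genes described here control the passage from G1 into S phase. They are the D-type cyclins *Ccnd1*, *Ccnd2* and *Ccnd3*, the kinases *Cdk4* and *Cdk6*, the CIP/KIP inhibitors *Cdkn1a* and *Cdkn1b*, the INK4 inhibitors *Cdkn2a* and *Cdkn2b*, and *Rb1*. They were chosen by symbol and not by a rule on their values, although earlier results of these data were known. They came from 48587 gene rows, and all 10 were among the 18916 genes with enough counts to be tested. Primary VSMCs had been isolated from the descending aorta of C57BL/6J mice aged 8 to 12 weeks, and they were cultured before transduction. The 2 shCtrl libraries came from cells given a lentivirus with a hairpin against a plant microRNA sequence, and the 2 sh*Mettl14* libraries from cells given a lentivirus with 1 hairpin against *Mettl14* (sh*Mettl14*-2 in the study's legends), which encodes a subunit of the complex that writes m6A on mRNA. In each group, the libraries carry the letters A and B, which are not stated to mark a shared animal, culture or day, so p-values measure the spread between these libraries, which may be technical. Cells of all 4 libraries were thus virus-treated, and no untransduced cells were compared.

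In G1, growth signals raise D-type cyclins, which bind CDK4 or CDK6 and phosphorylate the retinoblastoma protein, so that E2F factors are released and S-phase genes are transcribed. INK4 proteins bind the kinases and keep cyclin away, whereas CIP/KIP proteins bind cyclin-CDK complexes, inhibiting CDK2 in particular. In the vessel wall this switch is known for the cell cycle entry of medial VSMCs after injury, when they leave the contractile state.

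Totals ranged from 114343653 to 124815868 counts per library, and a count of 0 allowed up to 3 counts, or 0.0262 CPM (here counts scaled to the raw library total) at most, with counting error alone considered. All other CPM values are scaled to library sizes adjusted by TMM normalization. The target of the hairpin, *Mettl14*, was counted 2050 and 2154 times with shCtrl and 546 and 568 times with sh*Mettl14* (letters A and B), without overlap of the groups. The libraries differed more by letter than by hairpin, since the first principal component separated the letters with 63.7% of the variance. Among defining markers, the contractile gene *Acta2* had 3547 and 2799 CPM in shCtrl A and B and 2171 and 2073 CPM in sh*Mettl14* A and B (log2 fold change −0.58 with an unadjusted p = 0.038 by edgeR, named after its value was seen). *Myh11* had 338 and 101 CPM in shCtrl A and B and 233 and 75.0 CPM in sh*Mettl14* A and B. Its log2 difference of letter B minus letter A was −1.69 as the mean over both hairpins, and its log2 fold change was −0.51 (standard error 0.76). Of 10 smooth muscle markers, 9 had log2 fold changes below 0 and 8 were lower within both letters, with a median of −0.51. Of all genes tested, 27.7% were lower within both letters. The letter difference of *Myh11* was not shared by the whole list. Both B libraries were below both A libraries for 5 smooth muscle markers and above them for 2, beside 28.8% and 27.2% of all genes tested. The endothelial genes *Pecam1* and *Cdh5* were present as well, at 477 to 820 CPM and 508 to 818 CPM. The 10 endothelial markers summed to 2204 and 4605 CPM in shCtrl A and B and 2060 and 2861 CPM in sh*Mettl14* A and B. Of these sums, *Emcn* alone made up 649 and 2100 CPM in shCtrl A and B and 484 and 1077 CPM in sh*Mettl14* A and B. In bulk RNA, fewer cells of a type and less RNA per cell cannot be told apart.

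With sh*Mettl14*, *Ccnd2* was higher and *Cdk4* was lower in both libraries than in either shCtrl library, by 1.30-fold and to 78.8% of the shCtrl level, but neither difference passed the test. The other 8 genes overlapped between the groups. The overlap of *Cdkn1b* rested on 61.4 CPM in shCtrl B against 61.2 CPM in sh*Mettl14* A, a gap within counting error. None of the 10 had an adjusted p under 0.05 with edgeR's quasi-likelihood test and Benjamini-Hochberg adjustment, as was the case for 0% of all genes tested. The hairpin's own target *Mettl14* did not pass this fit either, with a log2 fold change of −2.08 and an unadjusted p = 0.00039 by edgeR. The lack of a passing gene therefore does not show that the 10 genes were unchanged. With DESeq2, 5 genes of the whole table passed, *Mettl14* among them and none of the 10. At an unadjusted p under 0.05 the edgeR count was also 0 of 10, against 315 genes or 1.67% of all genes tested. The 1 gene with both sh*Mettl14* libraries above both shCtrl libraries compares with 14.7% of all genes, and the 1 gene with both below compares with 13.3%. The median log2 fold change of the 10 genes was 0.04, and that of all genes tested was 0.0094.

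**Figure D1:**
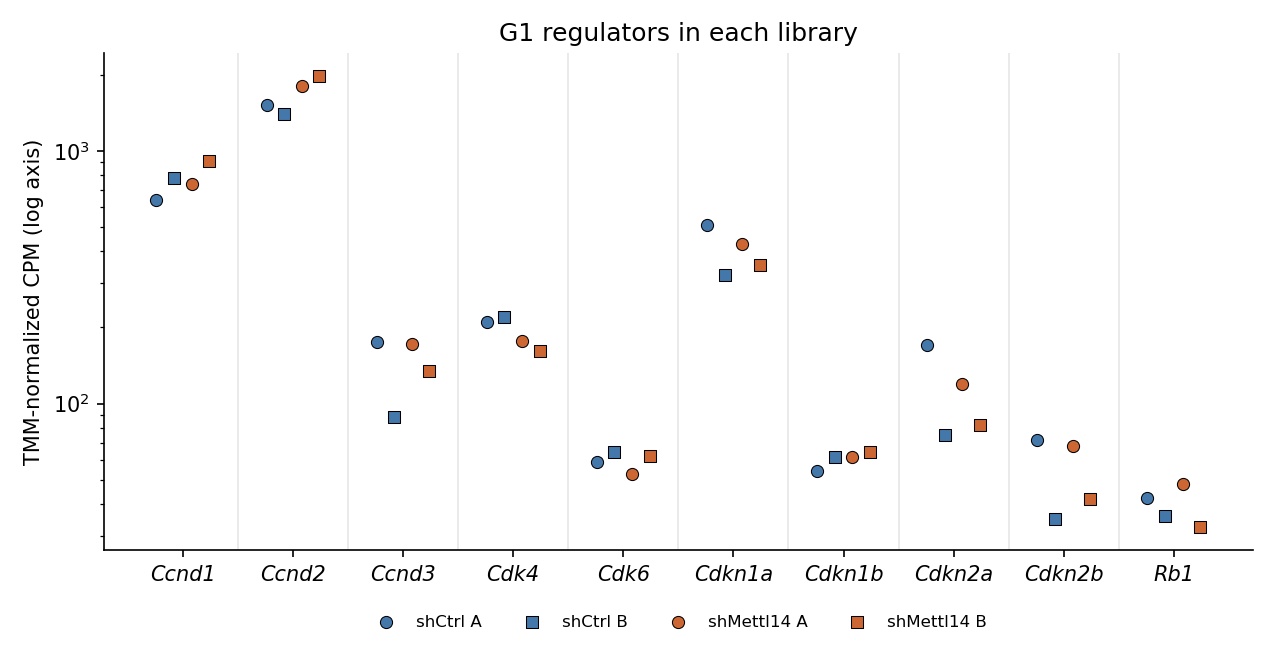
TMM-normalized CPM, on a log axis, of the 10 G1 regulators in each library, with circles for letter A, squares for letter B, blue for shCtrl and orange for sh*Mettl14*. The orange points lie above the blue for *Ccnd2* and below them for *Cdk4*, and both squares lie below both circles for *Ccnd3*, *Cdkn1a*, *Cdkn2a*, *Cdkn2b* and *Rb1*.

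The cyclin D2 gene had the highest mean level per length of the 10 genes, although its range overlapped that of *Ccnd1*. *Ccnd2* (ENSMUSG00000000184, minus strand, chr6:127125162-127152193 of GRCm38) had 1511 and 1399 CPM in shCtrl A and B and 1811 and 1982 CPM in sh*Mettl14* A and B. The sh*Mettl14* libraries were both above both shCtrl libraries, and the letters had no common direction. Its means were 1455 ± 79.6 CPM (SD, n = 2) with shCtrl and 1896 ± 121 CPM (SD, n = 2) with sh*Mettl14*. The log2 fold change was 0.38 (standard error 0.18, 95% confidence interval −0.09 to 0.86, unadjusted p = 0.093 and adjusted p = 1.0 by edgeR's quasi-likelihood test). Within letters the log2 ratio was 0.26 for A and 0.50 for B. With each library left out in turn it stayed between 0.32 and 0.45.

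*Ccnd1* (ENSMUSG00000070348, minus strand, chr7:144929931-144939925), the cyclin D1 gene and a classic mitogen-responsive gene, had 639 and 777 CPM in shCtrl A and B and 742 and 906 CPM in sh*Mettl14* A and B. The groups overlapped, because shCtrl B exceeded sh*Mettl14* A, yet the sh*Mettl14* library was the higher within each letter and the B library the higher within each hairpin. The log2 ratio was 0.21 within A and 0.22 within B, and the letters differed by 0.28 with shCtrl and 0.29 with sh*Mettl14*. The fit gave a log2 fold change of 0.22 (standard error 0.22, 95% confidence interval −0.34 to 0.78, unadjusted p = 0.36 by edgeR's quasi-likelihood test). *Ccnd3* (ENSMUSG00000034165, plus strand, chr17:47505051-47599691), the cyclin D3 gene, had 176 and 88.7 CPM in shCtrl A and B and 172 and 134 CPM in sh*Mettl14* A and B. The shCtrl B library was the lowest, the A libraries were alike with a log2 ratio of −0.03, and the B libraries had a log2 ratio of 0.60. Its log2 fold change of 0.21 (standard error 0.38) turned to −0.20 without shCtrl B, and it reached 0.79 without shCtrl A, with an unadjusted p = 0.030 and an adjusted p of 0.69 by edgeR, for which the spread came from the sh*Mettl14* libraries alone. A processed copy, *Ccnd3-ps*, had 0 and 0 counts with shCtrl and 7 and 8 with sh*Mettl14*, far below the 9583 to 20460 counts of *Ccnd3*.

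Per length of merged exon (RPKM, here TMM-normalized CPM per kb), the D-type cyclins summed to 316 and 324 RPKM in shCtrl A and B and to 370 and 418 RPKM in sh*Mettl14* A and B. Both sh*Mettl14* sums were above both shCtrl sums, and a two-sided exact permutation test gave p = 0.333, the smallest that 2 libraries against 2 allow. *Ccnd2* took 48.3% ± 3.43 (SD, n = 2) of it with shCtrl and 51.2% ± 1.22 with sh*Mettl14*, *Ccnd1* took 46.9% ± 5.70 and 44.3% ± 2.39, and *Ccnd3* took 4.72% ± 2.26 and 4.48% ± 1.17. The ranges of each share overlapped between the groups.

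The kinase that the D-type cyclins activate went the other way. *Cdk4* (ENSMUSG00000006728, plus strand, chr10:127063534-127067920) had 210 and 220 CPM in shCtrl A and B and 177 and 161 CPM in sh*Mettl14* A and B. The sh*Mettl14* libraries were both below both shCtrl libraries, and the letters again had no common direction. The means were 215 ± 6.94 CPM (SD, n = 2) and 169 ± 11.9 CPM (SD, n = 2). The log2 fold change was −0.34 (standard error 0.19, 95% confidence interval −0.83 to 0.14, unadjusted p = 0.13 and adjusted p = 1.0 by edgeR's quasi-likelihood test). The letters gave −0.24 for A and −0.45 for B. Leaving out each library in turn gave −0.42 to −0.27. On the opposite strand, exons of *Tspan31* cover 19.7% of the exon bases of *Cdk4*, and *Tspan31* had 7349 and 5246 counts in the shCtrl libraries and 6983 and 6646 in the sh*Mettl14* libraries, against 20891 to 23817 for *Cdk4*. Since the sources used here do not give the strand setting of the counting, reads of the shared bases cannot be told apart.

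The promoter of *Cdk4* is shown because this gene was lower in both sh*Mettl14* libraries and because the window holds repeated E-boxes. The window runs from 250 to 11 bases before the RefSeq start on the plus strand, chr10:127063285-127063524 of GRCm38.p6, and capitals mark the E-box CACGTG, which MYC-MAX dimers are known to bind, and the Sp1 word GGGCGG or its reverse complement.
Cdk4 promoter: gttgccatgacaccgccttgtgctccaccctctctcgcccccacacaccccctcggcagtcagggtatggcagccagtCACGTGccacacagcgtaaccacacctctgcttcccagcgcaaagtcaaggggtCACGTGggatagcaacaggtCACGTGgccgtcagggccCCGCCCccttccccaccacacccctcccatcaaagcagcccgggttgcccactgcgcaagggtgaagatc
It holds CACGTG 3 times and GGGCGG 1 time. On both strands, 5.69% of 32851 RefSeq promoter windows of the same length held at least 1 CACGTG and 0.0578% held 3 or more, a count chosen after the sequence was seen, and 31.3% held GGGCGG. A word match is a description and not a shown binding site.

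*Cdk6* (ENSMUSG00000040274, plus strand, chr5:3341485-3531008), which encodes the kinase with the same cyclin partners, had 58.9 and 64.2 CPM in shCtrl A and B and 52.6 and 61.8 CPM in sh*Mettl14* A and B. The groups overlapped, and within each letter the sh*Mettl14* library was slightly lower. By the fit the log2 fold change was −0.10 (standard error 0.20, 95% confidence interval −0.62 to 0.41, unadjusted p = 0.63 by edgeR's quasi-likelihood test), and it was 0.0093 without sh*Mettl14* A. Per length, *Cdk4* exceeded *Cdk6* in each library and took 93.8% ± 0.167 (SD, n = 2) of the summed kinase RPKM with shCtrl and 92.7% ± 1.25 with sh*Mettl14*. The sums were 68.7 and 72.1 RPKM in shCtrl A and B and 58.4 and 53.9 RPKM in sh*Mettl14* A and B, without overlap and with an exact permutation p = 0.333. Thus 2 of the 10 genes, both kinases, were lower within both letters, as were 27.7% of all genes tested, and 3 (*Ccnd1*, *Ccnd2* and *Cdkn1b*) were higher within both, as were 30.0%.

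**Figure D2:**
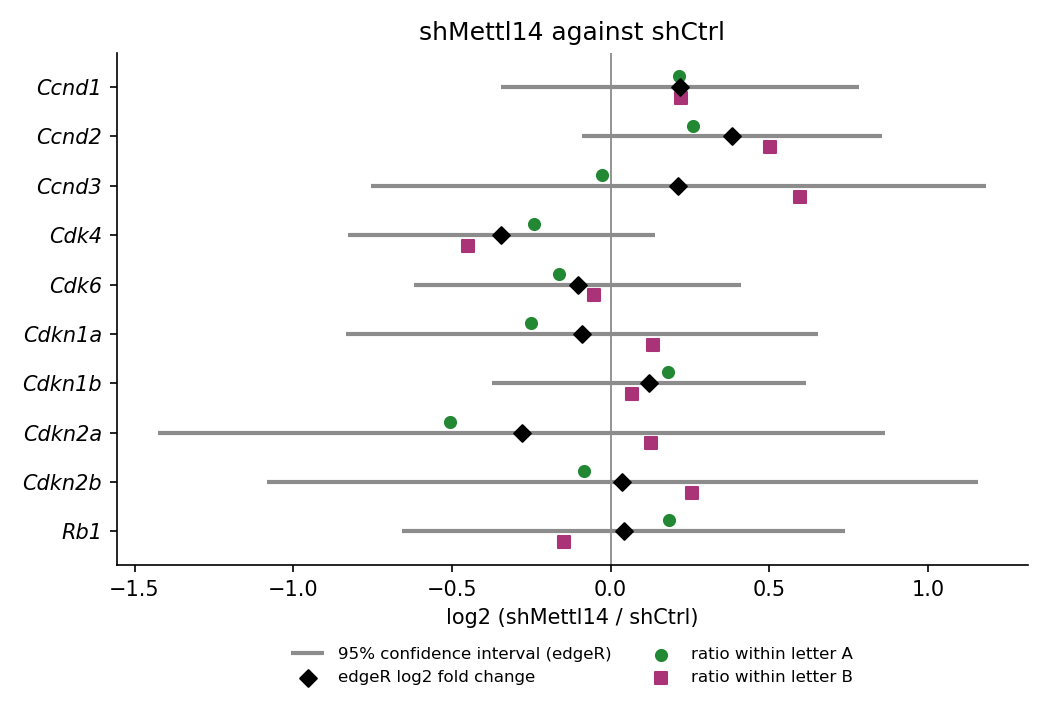
Log2 ratio of sh*Mettl14* to shCtrl for each G1 regulator, with the edgeR estimate as a diamond, its 95% confidence interval as a grey bar, and the ratios within letter A (green circle) and letter B (purple square). Every interval crosses 0, and circle and square lie on the same side of 0 for *Ccnd1*, *Ccnd2*, *Cdk4*, *Cdk6* and *Cdkn1b*.

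**Figure D3:**
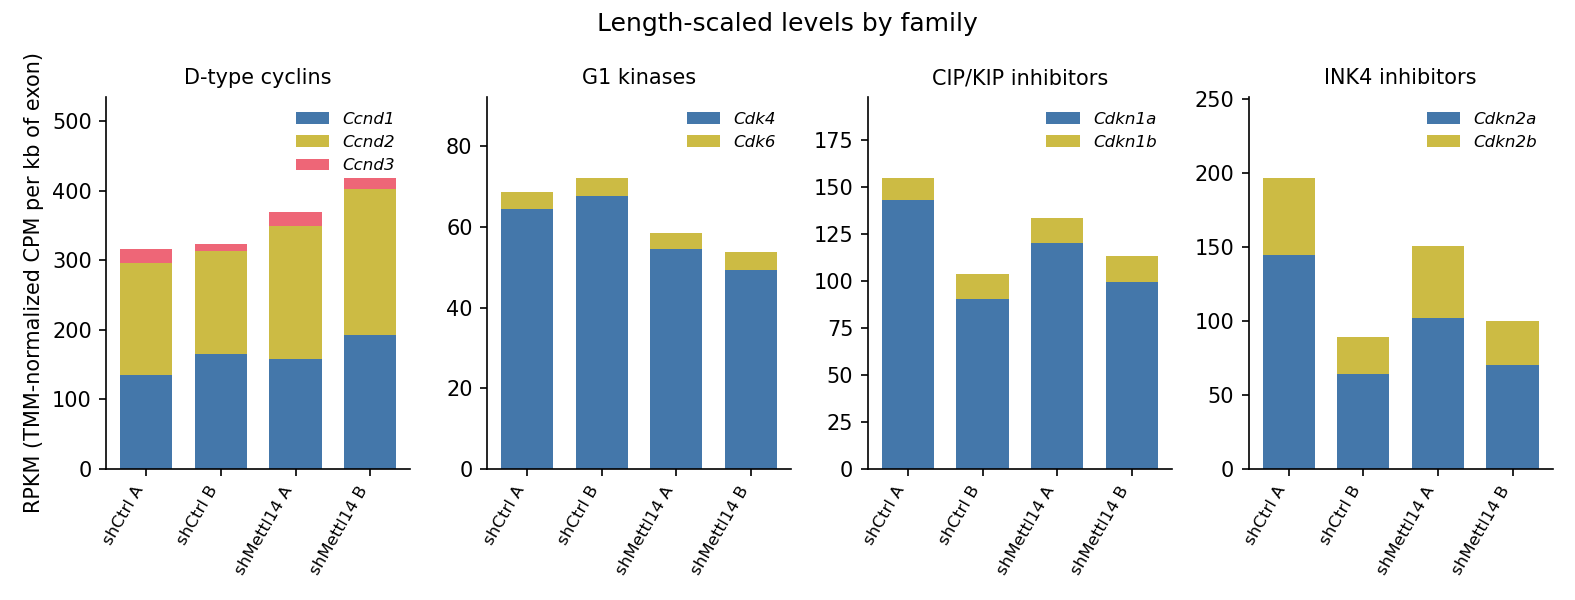
RPKM of each family in each library, as bars stacked from 0 by gene, with a separate vertical axis for each family. The D-type cyclin bars of sh*Mettl14* are taller and the kinase bars shorter than those of shCtrl, whereas the inhibitor bars are shorter in the B than in the A library of each hairpin.

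*Cdkn1a* and both INK4 genes differed by letter. *Cdkn1a* (ENSMUSG00000023067, plus strand, chr17:29090976-29100727), which encodes p21, a p53 target, had 508 and 321 CPM in shCtrl A and B and 426 and 352 CPM in sh*Mettl14* A and B. Both B libraries were below both A libraries, and the sh*Mettl14* values lay between the shCtrl values. The A library exceeded the B library 1.58-fold with shCtrl and 1.21-fold with sh*Mettl14*, and the log2 ratio of the hairpins was −0.25 within A but 0.13 within B. The log2 fold change of −0.09 (standard error 0.29, 95% confidence interval −0.83 to 0.65, unadjusted p = 0.77 by edgeR's quasi-likelihood test) became 0.28 when shCtrl A was left out and 0.044 when sh*Mettl14* B was.

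*Cdkn1b* (ENSMUSG00000003031, plus strand, chr6:134920401-134925513), which encodes p27, known mainly for control through protein turnover, had 53.9 and 61.4 CPM in shCtrl A and B and 61.2 and 64.2 CPM in sh*Mettl14* A and B. The shCtrl A library was the lowest and the other 3 lay within 61.2 to 64.2 CPM. In the fit the log2 fold change was 0.12 (standard error 0.19, 95% confidence interval −0.37 to 0.62, unadjusted p = 0.56 by edgeR's quasi-likelihood test). *Cdkn1a* took 89.7% ± 3.77 (SD, n = 2) of the CIP/KIP sum per length with shCtrl and 88.7% ± 1.69 with sh*Mettl14*. That sum was 155 and 104 RPKM in shCtrl A and B and 133 and 113 RPKM in sh*Mettl14* A and B, with an exact permutation p = 1.

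The INK4 genes lie next to each other on chromosome 4 and had the widest spread. *Cdkn2a* (ENSMUSG00000044303, minus strand, chr4:89274471-89294653) had 170 and 75.2 CPM in shCtrl A and B and 120 and 82.2 CPM in sh*Mettl14* A and B. Its count sums the transcript for p16, an INK4 protein, and that for p19ARF, which acts on the MDM2-p53 axis, because both share exons and the table has 1 row for the gene. Both B libraries were low, shCtrl A was the highest, and the hairpin difference had opposite signs within the letters, at −0.51 in letter A and 0.13 in letter B on the log2 scale. The log2 fold change was −0.28 (standard error 0.44, 95% confidence interval −1.43 to 0.86, unadjusted p = 0.56 by edgeR's quasi-likelihood test). It turned to 0.43 without shCtrl A, and it was −0.76 without shCtrl B (unadjusted p = 0.041 and adjusted p = 0.94 by edgeR, where the lone shCtrl library is assumed to vary like the sh*Mettl14* libraries).

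*Cdkn2b* (ENSMUSG00000073802, minus strand, chr4:89306299-89311039), which encodes p15, an INK4 protein known as a TGF-beta target, had 72.0 and 34.9 CPM in shCtrl A and B and 67.9 and 41.8 CPM in sh*Mettl14* A and B. The same order held as for *Cdkn2a*, with shCtrl A highest and shCtrl B lowest. The log2 fold change was 0.04 (standard error 0.43, 95% confidence interval −1.08 to 1.16, unadjusted p = 0.94 by edgeR's quasi-likelihood test), and it became −0.40 when shCtrl B was left out and −0.36 when sh*Mettl14* A was. The A library exceeded the B library 2.26-fold for *Cdkn2a* and 2.06-fold for *Cdkn2b* with shCtrl, and 1.45-fold and 1.62-fold with sh*Mettl14*. The INK4 sum per length was 197 and 89.3 RPKM in shCtrl A and B and 151 and 100 RPKM in sh*Mettl14* A and B, with an exact permutation p = 1. *Cdkn2a* took 73.7% and 71.8% of it with shCtrl and 67.6% and 70.0% with sh*Mettl14*, letter A before letter B, so that this share was lower in both sh*Mettl14* libraries (exact permutation p = 0.333).

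Promoter windows of the same kind are shown for the inhibitors that split by letter, for *Cdkn1a* at its inner RefSeq start (plus strand, chr17:29093519-29093758 of GRCm38.p6), for *Cdkn2a* at the start next to the p16-specific exon (minus strand, chr4:89282203-89282442) and for *Cdkn2b* (minus strand, chr4:89311043-89311282), each 5′ to 3′ with matched words in capitals.
Cdkn1a promoter: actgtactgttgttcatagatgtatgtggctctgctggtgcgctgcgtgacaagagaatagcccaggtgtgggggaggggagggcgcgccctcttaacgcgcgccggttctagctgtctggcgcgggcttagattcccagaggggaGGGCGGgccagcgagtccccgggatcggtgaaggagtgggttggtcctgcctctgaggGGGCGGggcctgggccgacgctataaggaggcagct
Cdkn2a promoter: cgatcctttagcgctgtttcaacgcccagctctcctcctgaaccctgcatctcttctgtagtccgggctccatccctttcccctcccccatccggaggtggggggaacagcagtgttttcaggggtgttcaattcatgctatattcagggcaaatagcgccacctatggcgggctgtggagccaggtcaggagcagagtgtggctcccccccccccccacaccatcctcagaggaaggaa
Cdkn2b promoter: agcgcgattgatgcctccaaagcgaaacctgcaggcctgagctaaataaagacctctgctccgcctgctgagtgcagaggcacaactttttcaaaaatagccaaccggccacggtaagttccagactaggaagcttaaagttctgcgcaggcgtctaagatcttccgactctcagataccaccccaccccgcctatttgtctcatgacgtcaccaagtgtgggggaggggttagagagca
The words searched on both strands were the Sp1 word GGGCGG, the NF-Y word CCAAT, the TATA box TATAAA, the E-box CACGTG, and for E2F the word TTTCGCGC and its variant TTTGGCGC, and no matched words overlapped in the windows shown. The *Cdkn1a* window shown holds GGGCGG 2 times, and the INK4 windows shown hold none of the 6 words. At the other RefSeq starts the order differs, since the outer window of *Cdkn1a* (chr17:29090729-29090968) holds none and that of *Cdkn2a* (chr4:89294630-89294869) holds GGGCGG 1 time. Across all windows CCAAT was held by 33.0%, TATAAA by 12.1%, TTTCGCGC by 0.240% and TTTGGCGC by 0.396%. No match says only that these letters are not in the window.

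*Rb1* (ENSMUSG00000022105, minus strand, chr14:73183673-73325822), the gene of the retinoblastoma protein, had 42.4 and 35.8 CPM in shCtrl A and B and 48.1 and 32.4 CPM in sh*Mettl14* A and B. Both B libraries were below both A libraries, and the sh*Mettl14* libraries were the highest and the lowest of the 4. The log2 fold change was 0.04 (standard error 0.27, 95% confidence interval −0.66 to 0.74, unadjusted p = 0.88 by edgeR's quasi-likelihood test), and the letters gave 0.18 for A and −0.15 for B. With shCtrl B left out it was −0.078, and with sh*Mettl14* A left out it was −0.27.

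Set side by side, the difference between letters exceeded that between hairpins for 8 of the 10 genes, all but *Ccnd2* and *Cdk4*, as it did for 64.2% of all genes tested. Both B libraries were below both A libraries for 5 genes, *Ccnd3*, *Cdkn1a*, *Cdkn2a*, *Cdkn2b* and *Rb1*, as for 28.8% of all genes. They were above both A libraries for 3, *Ccnd1*, *Cdk6* and *Cdkn1b*, as for 27.2%. For *Cdkn1b* this rested on 61.4 CPM in shCtrl B against 61.2 CPM in sh*Mettl14* A, a gap within counting error. Its letter and hairpin differences were also nearly equal, at 0.13 and 0.12 on the log2 scale. The median size of the letter difference was 0.35 on the log2 scale for the 10 genes and 0.39 for all genes tested, and that of the hairpin difference was 0.16 and 0.24. Counting error was at most 1.63% for any of the 10 genes. Proliferation and endothelial genes also differed by letter. *Mki67*, a marker of cycling cells, had 50.1 and 149 CPM in shCtrl A and B and 54.0 and 101 CPM in sh*Mettl14* A and B, and both B libraries were above both A libraries for 10 of 12 proliferation markers and 8 of 10 endothelial markers. Leukocyte markers summed to 11.6 to 15.3 CPM, with *Cd3e* and *Tyrobp* at 0 in all libraries but shCtrl A, fibroblast markers to 901 to 1096 CPM and striated muscle markers to 5.99 to 27.5 CPM. Of the fibroblast markers, *Cd34* had 414 to 505 CPM and *Ly6a* 195 to 282 CPM, whereas *Lum*, *Dpt* and *Pi16* had at most 0.968 CPM. *Col14a1* differed by letter, with 322 and 37.6 CPM in shCtrl A and B and 318 and 44.5 CPM in sh*Mettl14* A and B. *Dcn* differed the other way, with 68.3 and 160 CPM in shCtrl A and B and 72.3 and 120 CPM in sh*Mettl14* A and B. Of the 8 fibroblast markers, both B libraries were below both A libraries for 3 and above them for 2. The part of these cells in the letter pattern was not tested.

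**Figure D4:**
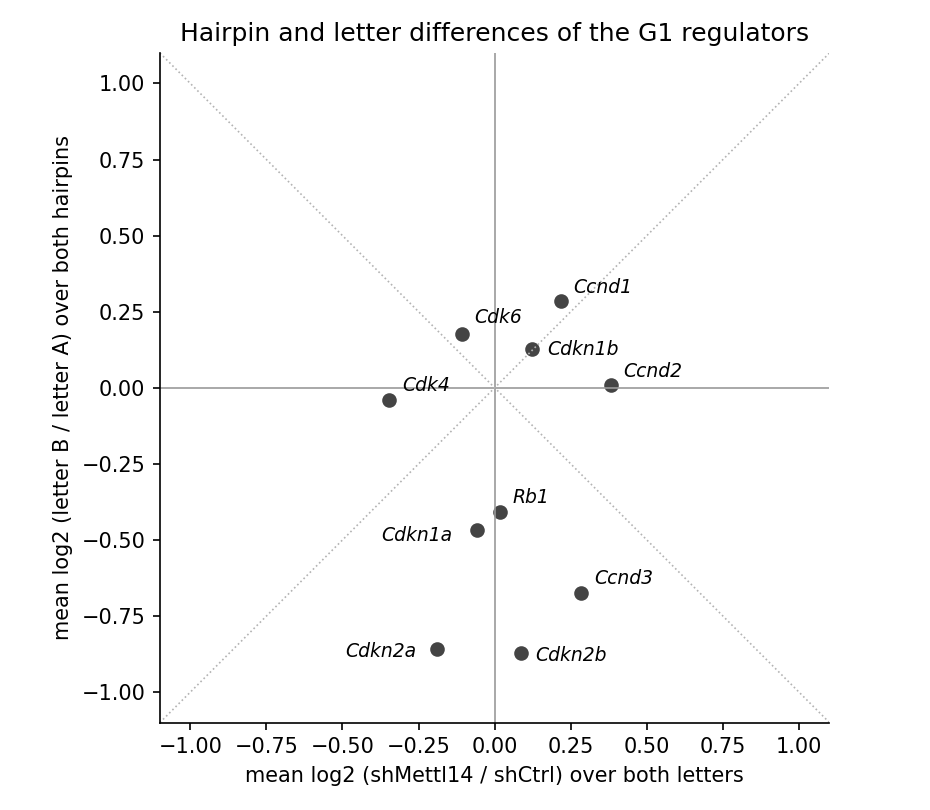
Mean log2 ratio of sh*Mettl14* to shCtrl (horizontal) against the mean log2 ratio of letter B to letter A (vertical) for each G1 regulator, where dotted diagonals mark equal sizes. *Ccnd2* and *Cdk4* lie near the horizontal line, and *Ccnd3*, *Cdkn1a*, *Cdkn2a*, *Cdkn2b* and *Rb1* lie below it, between the lower diagonals.

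Compared per length over all 4 libraries, the order of mean levels was *Ccnd2* at 178 ± 28.5 RPKM (SD, n = 4), *Ccnd1* at 163 ± 23.4, *Cdkn1a* at 113 ± 23.4, *Cdkn2a* at 95.3 ± 37.0 and *Cdk4* at 59.0 ± 8.46. Below them came *Cdkn2b* at 39.0 ± 13.3, *Ccnd3* at 16.3 ± 4.62, *Cdkn1b* at 13.2 ± 0.966, *Rb1* at 6.59 ± 1.16 and *Cdk6* at 4.24 ± 0.357 RPKM. Neighbours in this order had overlapping ranges except *Cdkn2b* above *Ccnd3*, *Cdkn1b* above *Rb1* and *Rb1* above *Cdk6*. Exon bases shared with genes of the opposite strand made up 23.4% of *Ccnd1* (with *Oraov1*, named LTO1 in the annotation), 14.9% of *Rb1*, 7.86% of *Ccnd2*, 7.68% of *Cdkn1a*, 4.11% of *Ccnd3* and 2.63% of *Cdk6*, and none of *Cdkn1b*, *Cdkn2a* or *Cdkn2b*. *Oraov1* had 2178 to 3172 counts, against 72596 to 117895 for *Ccnd1*, and *9330179D12Rik* and *Gm43126*, opposite to *Ccnd2*, had at most 15. Opposite to *Rb1*, *Rcbtb2* had 3122 to 4937 counts and *Lpar6* 1775 to 2833, against 3868 to 5712 for *Rb1*. *Bysl*, opposite to *Ccnd3*, had 2864 to 4185 counts, against 9583 to 20460 for *Ccnd3*, and both were lowest in shCtrl B. Whether reads of the shared bases entered these counts was not tested. The RPKM values therefore rest on lengths that include some shared bases.

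METTL14 works in a complex that methylates adenosine in a sequence context for which GGACT is a common form. In the longest coding transcript, GGACT occurred 1.92 times per kb in *Cdkn1a* and 1.42 times in *Ccnd3*, both above the median of 1.05 over 14367 genes. The genes *Ccnd1*, *Ccnd2*, *Cdk6*, *Cdkn1b*, *Cdkn2b* and *Rb1* had 0.659 to 0.948 per kb, and *Cdk4* and *Cdkn2a* had no GGACT. The 2 genes without overlap between the hairpins thus had 0.948 (*Ccnd2*) and 0 (*Cdk4*) per kb. These letters give no methylation, which was not measured in these libraries.

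The other cyclins and kinases of G1/S included 8 tested genes, of which 0 passed an unadjusted p of 0.05 in either direction, with 3 above and 5 below 0 in log2 fold change. *Cdk2*, the kinase of late G1, had 21.4 and 24.2 CPM in shCtrl A and B and 18.8 and 23.0 CPM in sh*Mettl14* A and B. Its cyclins *Ccne1* and *Ccne2* had log2 fold changes of −0.23 (standard error 0.24) and −0.11 (standard error 0.33). *Ccnh*, of the CDK-activating kinase, had 43.5 and 166 CPM in shCtrl A and B and 38.0 and 111 CPM in sh*Mettl14* A and B, a mean log2 difference of 1.74 between letters and of −0.39 between hairpins. *Cdc25a*, a phosphatase that activates CDK2, had a log2 fold change of 0.33 (standard error 0.25) and was higher within both letters. Of the other CDK inhibitors, 3 were tested and 0 passed, and *Cdkn2c* (p18) and *Cdkn1c* (p57) had log2 fold changes of 0.16 (standard error 0.27) and −0.22 (standard error 0.65).

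Among 18 pocket proteins, E2F and DP factors and MuvB subunits, 8 had log2 fold changes above and 10 below 0, and 0 passed an unadjusted p of 0.05. *Rbl2* (p130), the pocket protein of quiescent cells, had 26.7 and 29.8 CPM in shCtrl A and B and 33.3 and 36.2 CPM in sh*Mettl14* A and B, whereas *Rbl1* (p107) overlapped between the groups with a log2 fold change of 0.08 (standard error 0.39). *E2f1*, an activator, had 38.4 and 32.5 CPM in shCtrl A and B and 32.1 and 25.0 CPM in sh*Mettl14* A and B. *E2f4*, which works mainly with p107 and p130, had 43.1 and 53.2 CPM with shCtrl and 38.2 and 30.7 CPM with sh*Mettl14*. *Lin37*, a MuvB subunit, had 11.5 and 11.7 CPM with shCtrl and 7.15 and 8.27 CPM with sh*Mettl14*. In these libraries *Rbl2* was thus higher, and *E2f1*, *E2f4* and *Lin37* lower, with sh*Mettl14* without overlap, but their unadjusted p-values by edgeR's quasi-likelihood test were 0.20, 0.24, 0.093 and 0.068. Of all genes tested, 14.7% were higher and 13.3% lower without overlap. *E2f4* and *Lin37* were named for the largest absolute log2 fold changes of this list, so their lack of overlap partly follows from that choice.

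Of 18 genes for turnover and chaperones of G1 regulators, 1 was lower and 0 were higher at an unadjusted p under 0.05, which 1.67% of all genes tested reached in either direction. This gene was *Rbx1*, the RING subunit of cullin ubiquitin ligases, with 91.1 and 109 CPM in shCtrl A and B and 74.2 and 60.8 CPM in sh*Mettl14* A and B. On the log2 scale it differed by −0.57, with a standard error of 0.22 (unadjusted p = 0.048 and adjusted p = 1.0 by edgeR's quasi-likelihood test). *Skp2*, which directs p27 to degradation, had a log2 fold change of 0.29 (standard error 0.42), and the chaperone gene *Hsp90ab1* had −0.36 (standard error 0.25). Of 20 transcriptional regulators of the 10 genes, 8 had log2 fold changes above and 12 below 0, and 0 passed an unadjusted p of 0.05. *Trp53*, whose product induces *Cdkn1a*, had 119 and 107 CPM with shCtrl and 106 and 108 CPM with sh*Mettl14*, and *Mdm2*, which restrains p53, had 267 and 276 CPM and 252 and 238 CPM. The Polycomb genes *Suz12* and *Cbx7*, of complexes known to repress the INK4 locus, had log2 fold changes of −0.52 (standard error 0.26 and unadjusted p = 0.098 by edgeR's quasi-likelihood test) and 0.33 (standard error 0.47), and both B libraries of *Cbx7* were below both A libraries.

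Downstream of the switch, 20 E2F target genes had a median log2 fold change of −0.20, against 0.0094 for all genes tested, with 16 below 0 and 12 lower within both letters, the latter a pattern of 27.7% of all genes. At an unadjusted p under 0.05, 1 was lower and 0 higher, beside the 1.67% of all genes tested in either direction, and 0 passed with adjustment by edgeR. That gene, *Mcm3*, a subunit of the replicative helicase, was named after its value was seen and differed by −0.56, with a standard error of 0.20 (unadjusted p = 0.040 by edgeR's quasi-likelihood test). Smooth muscle markers were also mostly lower, with the median of −0.51, and the 9 striated muscle markers tested were all below 0 with a median of −1.58. Of these 9, 6 were lower within both letters. All striated muscle markers summed to 27.5 and 12.7 CPM in shCtrl A and B and 5.99 and 8.36 CPM in sh*Mettl14* A and B. The striated values thus rest largely on shCtrl A. The part of these cells in the E2F target values was not tested. The 12 proliferation markers had a median log2 fold change of −0.11, with 5 above and 7 below 0, and a median letter difference (B minus A) of 0.72 on the log2 scale. For *Mki67* the log2 ratio of the hairpins was 0.11 within A and −0.56 within B, and its log2 fold change was −0.36 (standard error 0.59).

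**Figure D5:**
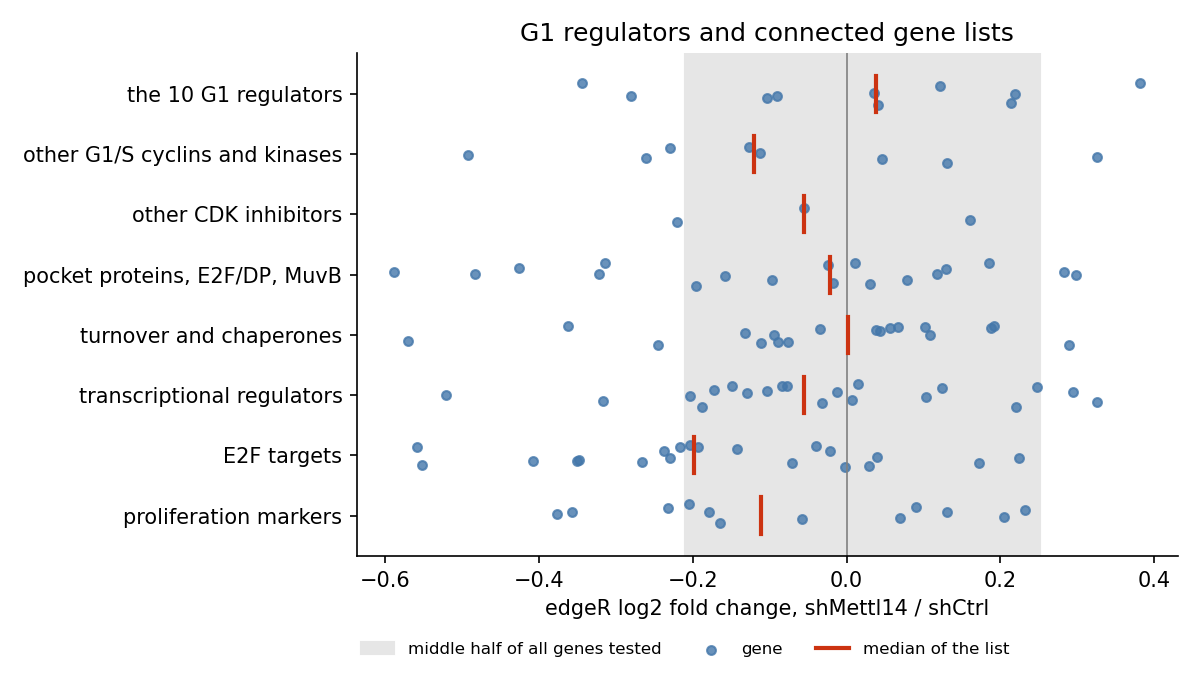
Log2 fold change of sh*Mettl14* against shCtrl by edgeR for each gene (blue) of the G1 regulators and 7 connected lists, with list medians in red and the middle range of all genes tested, between their quartiles, in grey. The E2F targets have the lowest median at −0.20, and the median of the 10 G1 regulators is 0.04.

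Patterns over the 4 libraries were compared by the root mean square difference of log2 CPM, each gene centred on its own mean, among 109 genes of these lists. Over 1035 gene combinations that hold at least 1 of the 10 genes, *Cdk6* was closest to *Mybl2*, at 0.027, and to *Cdk2*, at 0.030, and *Cdkn1b* was closest to *E2f3*, at 0.035. With 4 libraries that share letters and hairpins, these values are a description, and no test of likeness was made.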

How the data were processed

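From poly-A RNA the authors made stranded paired-end libraries, aligned the reads to GRCm38 (mm10) by STAR and used featureCounts for gene totals. The table holds the deposited raw counts. The strand setting and the treatment of reads with several places are not given in the sources used here. Counts of all 4 libraries were compared with edgeR 4.0.16 (R 4.3.3) by TMM normalization, filterByExpr and a robust quasi-likelihood test without a block, with Benjamini-Hochberg adjustment over 18916 genes and a threshold of 0.05. Standard errors were derived from the F statistic as the size of the log2 fold change over the root of F, and intervals are at 95%. Within-letter ratios are differences of log2 CPM with a prior count of 2, and a hairpin or letter difference is the mean of 2 such ratios. RPKM is normalized CPM per kb of merged exon in GENCODE M21 on GRCm38, a later annotation than the authors' Ensembl release. Promoter sequences are RefSeq's on GRCm38.p6, and 7 of the 10 genes matched with 10 windows, among which those shown were chosen after they were read. Family sums and shares were compared by exact permutation tests over libraries.

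The members and all gene lists were chosen with earlier results of these data known. Beside the 10 genes and *Mettl14*, the text names from each list of G1/S partners every gene with an unadjusted p under 0.05 and the 2 with the largest absolute log2 fold change at a mean of at least 1 CPM, and a fixed set of 10 genes (*Cdk2*, *Ccne1*, *Ccne2*, *Rbl1*, *Rbl2*, *E2f1*, *Trp53*, *Mdm2*, *Skp2* and *Mki67*). Marker genes, overlapping genes, the copy of *Ccnd3* and *Mcm3* are named outside this rule. Alternatives were DESeq2 1.42.0, RLE and upper-quartile factors, no filter beyond 1 count, a minimum of 10 counts per library, the letter as a replicate block, each library left out in turn, a prior count of 0.5 and the longest transcript as length. The test was checked on simulated counts that had no letter effect. Their dispersion was set below the common dispersion of the fit without a block. That check therefore does not show how the test performs at the spread of these libraries. Python 3.11.15 with pandas 2.3.3, numpy 2.4.6, scipy 1.17.1 and matplotlib 3.10.9 did the remaining steps.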

Additional observations from a re-analysis of the deposited data

How the results depend on the processing

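None of the 10 G1 regulators had an adjusted p under 0.05 in any alternative, and none changed direction with DESeq2, other normalization factors, other filters or the replicate block. Over all genes, 0 passed an adjusted p of 0.05 in the edgeR fit, 5 with DESeq2, 9 with the letter as a replicate block, and 0 to 1 with each library left out, the 1 without shCtrl B. At an unadjusted p under 0.05 the 315 genes became 1941 with the replicate block and 78 to 1399 with each library left out, the fewest without sh*Mettl14* B and the most without shCtrl A. Among the 10 genes this count went from 0 to 1 with the replicate block, beside 1941 of the 18916 genes tested. That gene was *Ccnd2* (unadjusted p = 0.037, adjusted p = 0.46 by edgeR). With a library left out, the lone library of a group is assumed to vary like those of the other group. Among the partner genes named, the replicate block also put *Suz12* (unadjusted p = 0.0069), *Lin37* (0.010), *E2f4* (0.024), *Ccnh* (0.039) and *Hsp90ab1* (0.042) under 0.05 in edgeR, beside *Rbx1* (0.0082), with adjusted p from 0.33 to 0.47, so that the counts of 0 for their lists hold only without the block. The partner genes under 0.05 with the block had all been named for the largest absolute log2 fold changes of their lists. Their low p-values partly follow from that choice. The sources used here do not state that a letter marks a shared animal, culture or day. Deviations of same-letter libraries from their group means correlated at 0.578 across genes, and the common dispersion was 0.178 without and 0.0418 with the block. *Mettl14* passed an adjusted p of 0.05 with DESeq2 (log2 fold change −2.09) and with the block (−2.08). The cause of these moves was not tested.

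Log2 fold changes that turned direction when a library was left out ranged from −0.20 to 0.79 for *Ccnd3*, −0.22 to 0.0093 for *Cdk6*, −0.39 to 0.28 for *Cdkn1a*, −0.76 to 0.43 for *Cdkn2a*, −0.40 to 0.65 for *Cdkn2b* and −0.27 to 0.30 for *Rb1*. The same held for *Ccnh* (−1.46 to 0.77), *Cdkn1c* (−0.81 to 0.59), *Cdkn2c* (−0.078 to 0.45), *Cbx7* (−0.10 to 0.93), *Cdk2* (−0.27 to 0.012), *Ccne2* (−0.35 to 0.10), *Rbl1* (−0.29 to 0.53), *Trp53* (−0.16 to 0.0064), *Skp2* (−0.082 to 0.74) and *Mki67* (−0.93 to 0.63). *Ccnd1*, *Ccnd2*, *Cdk4* and *Cdkn1b* kept their direction without any 1 library.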
